A study of Homo sapiens with 6 samples.

Results

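The genes described are 44 genes of G2 phase and mitosis, chosen by symbol and read in A549 cells, a line from a human lung adenocarcinoma. Each was read from the probe set assigned to that gene alone, and 43 of the 44 had exactly 1 such probe set among the 18417 genes measured. CENPA, the centromeric histone H3 variant, was on the array only in a probe set shared with SLC35F6, and so has no value here. Control stable A549 cells (C, 3 arrays) were compared with stable A549 cells labelled as an H2AX knockdown (P1, 3 arrays). Cells of both groups had been starved of serum overnight and then treated with VP-16 for 48 h, so no array shows untreated cells. VP-16 is etoposide, which traps topoisomerase II on cleaved DNA. H2AX is the histone variant phosphorylated beside double-strand breaks. The submitters call the 3 samples of a group independent experiments, so the p-values measure the spread between experiments. How many clones stand behind each stable line, and how the knockdown was made, are not given in the sources used here.

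Entry into mitosis is driven by cyclin-dependent kinase 1 bound to cyclin A or cyclin B, after CDC25 phosphatases have removed inhibitory phosphates from it. The spindle checkpoint then holds back the anaphase-promoting complex until every kinetochore is attached, after which securin and cyclin B are destroyed and the cell divides. Transcripts of these genes accumulate in G2 through B-MYB, FOXM1 and the MuvB core, and are held down in resting or p53-activated cells by the DREAM complex at CHR promoter elements, often beside CCAAT boxes bound by NF-Y. In cells with damaged DNA this set of genes is therefore a common readout of whether cells are still cycling.

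The promoter letters of 3 members are shown because they are among the 4 with the lowest p-values below, and because they show how the members vary in these 2 elements. RefSeq promoters (GRCh38.p14, 250 bases before to 50 after the start) were matched for 38 of the 44 genes. AURKA, FOXM1, BUB3, TTK, UBE2C and TPX2 had no entry. The 250 bases before the start are printed, with the letters of the CHR (TTTGAA or TTCGAA) and of the CCAAT box in capitals on either strand. ATTGG is the reverse form of CCAAT, and that of TTTGAA is TTCAAA. CKS2 lies at chr9:89310945-89311194, KIF20A at chr5:138178862-138179111 and CENPF at chr1:214602945-214603194, all on the plus strand.
CKS2: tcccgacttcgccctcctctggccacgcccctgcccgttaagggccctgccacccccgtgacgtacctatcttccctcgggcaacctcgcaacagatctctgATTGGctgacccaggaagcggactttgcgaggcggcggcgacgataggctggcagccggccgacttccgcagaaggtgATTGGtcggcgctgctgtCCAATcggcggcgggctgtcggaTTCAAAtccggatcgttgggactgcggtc
KIF20A: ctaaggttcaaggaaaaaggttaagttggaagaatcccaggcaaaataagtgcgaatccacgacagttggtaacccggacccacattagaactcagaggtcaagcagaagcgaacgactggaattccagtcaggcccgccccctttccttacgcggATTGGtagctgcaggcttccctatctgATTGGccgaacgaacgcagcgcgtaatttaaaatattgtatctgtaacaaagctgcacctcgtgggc
CENPF: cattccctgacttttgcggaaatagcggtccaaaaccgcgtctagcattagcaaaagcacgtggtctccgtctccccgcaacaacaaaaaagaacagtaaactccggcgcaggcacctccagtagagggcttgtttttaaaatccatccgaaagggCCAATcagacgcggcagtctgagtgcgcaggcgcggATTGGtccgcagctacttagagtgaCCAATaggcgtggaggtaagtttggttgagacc

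CKS2 holds 3 CCAAT boxes and, at base -29 from the start, the letters of a CHR on the minus strand. KIF20A holds 2 CCAAT boxes in this stretch and neither form of the CHR letters in its 300 bases. CENPF holds 3 CCAAT boxes before its start, and the CHR letters at base 41 after it. Over the 300 bases, TTTGAA or TTCGAA was present in 27 of the 38 member promoters (71.1%), against 16.6% of all 27305 promoters of this length. CCAAT was present in 29 of 38 (76.3%), against 35.7% of all promoters, and 2 or more copies in 19 (50%), against 11.3%. Both elements were present in 23 of 38 (60.5%), against 6.58%, and in 2 members, CDCA8 and MKI67, the 2 motifs shared letters. Such a match describes the letters only. The log2 difference between the groups had a median of 0.05 in the 22 measured members with both elements and of −0.12 in the 6 with CCAAT alone. It was 0.11 in the 4 with the CHR letters alone and 0.09 in the 5 with neither. Members on both sides of 0 were found in each class but that with the CHR letters alone.

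The values are log2 signals, as deposited, and each array is 1 sample. Precision is limited by how few arrays there are. The signals of different probe sets depend on their probes, so levels are compared here between arrays and not between genes. On the array labels themselves, the signal of H2AX (probe set 7952179) was 5.11, 5.27 and 5.26 in the controls and 5.28, 5.17 and 5.49 in the arrays labelled H2AX knockdown. That is a difference of 0.10 on the log2 scale (limma adjusted p = 0.823), and its 95% interval ran from −0.25 to 0.45. The groups overlapped, so the signal of the targeted gene does not show the labelled knockdown, and every direction below is that of the label. Knockdown-labelled replicate 1 stood apart, with the narrowest spread of signals (SD over genes 1.29, against 1.41 to 1.56 in the other 5 arrays). Because signals of different probe sets cannot be ranked as levels, fixed cell type markers were compared between arrays only, and the labelled cell type was not checked from them. The 6 epithelial markers had a summed linear signal of 1408 to 1867 in the controls and 1403 to 1926 in the knockdown-labelled arrays. All 8 fibroblast markers were above 0 in the difference, with a summed linear signal of 85.7 to 108 in the controls and 101 to 122 in the knockdown-labelled arrays. Over all 18417 genes 8941 were above 0. The lowest limma adjusted p of these 8 markers was 0.376, for LUM. LUM and DCN read highest in knockdown-labelled replicate 1, at 2.21 and 2.81. The 6 measured blood markers summed to 464 to 625 in the controls and 349 to 436 in the knockdown-labelled arrays. Of these 6, CD68, which weighs most in the sum (mean log2 signal 8.70), was at −0.46 and LYZ at −0.40, while 4 were above 0. The 4 endothelial markers summed to 30.8 to 35.7 and 31.7 to 36.3. The part of other cell types in the results was not tested.

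None of the 43 measured G2 and mitosis genes differed between the groups past the threshold (limma, adjusted p under 0.05 over all genes). Over all genes 6 passed, or 0.0326%. The lowest adjusted p among the members was 0.273, for CKS2. At an unadjusted p under 0.05 in limma, 3 members read lower in the knockdown-labelled arrays (CKS2, AURKA and KIF20A) and 1 read higher (CENPF). These are 6.98% and 2.33% of the members, against a background of 8.38% of all genes lower and 3.78% higher. Both shares lie near the background, and so are not a result about these genes. The groups did not overlap for 6 members that were lower (13.95%, against 9.82% of all genes) and 2 that were higher (4.65%, against 7.17%). In cultured cells read in bulk, fewer cells in G2 or mitosis and less RNA per cell cannot be told apart.

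The differences were small in both directions. Of the 43 members 18 were below 0 and 25 above, with a median log2 difference of 0.05 and a mean of −0.01, beside a median of −0.01 for all genes. The extremes were −0.78 for CKS2 and 0.41 for CENPF, and 36 members lay within 0.25 of 0. The median standard error was 0.17. For 40 of the 43 members (93.0%, against 96.0% of all genes) the 95% interval lay wholly inside a 2-fold change in either direction. The exceptions were CKS2, AURKA and KIF20A, whose intervals reached −1.24, −1.27 and −1.01. These intervals are not adjusted for the number of genes, and RMA signals compress changes in dim probe sets.

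**Figure D1:**
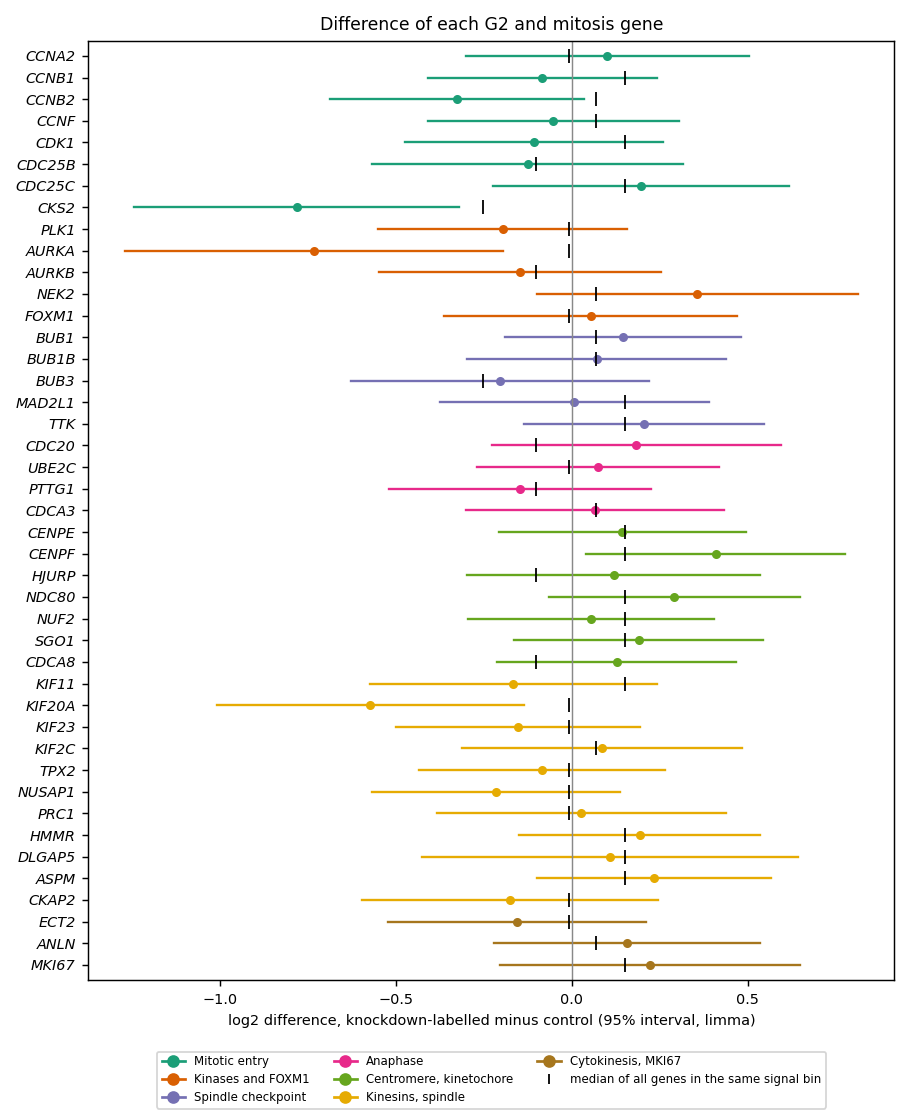
Log2 difference, knockdown-labelled minus control, of each of 43 genes (x axis), with 95% intervals from limma on 3 against 3 arrays; colours mark the roles, and black ticks the median difference of all genes in the same bin of mean signal. Only the intervals of CKS2, AURKA, KIF20A and CENPF leave out 0, and none of these genes passed the threshold after adjustment over all genes.

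Among the genes of mitotic entry, CKS2, a small subunit that binds CDK1, had the lowest value. Its log2 signal (probe set 8156290) was 5.71, 5.21 and 5.47 in control replicates 1, 2 and 3, and 4.21, 4.92 and 4.92 in knockdown-labelled replicates 1, 2 and 3. All knockdown-labelled arrays read below all controls, and replicate 1 was the lowest. The difference was −0.78 ± 0.213 (SE), a signal 41.8% lower, with a limma unadjusted p of 0.00282 and an adjusted p of 0.273. Without knockdown-labelled replicate 1 it was −0.55.

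The catalytic core of the entry switch, CDK1 and CCNB1, showed smaller differences. Both genes lay in the dimmest of 5 equal bins of mean signal, and CKS2 in the brightest. As RMA compresses changes in dim probe sets, these differences cannot be ranked against that of CKS2. CDK1, the mitotic kinase (probe set 7927710), read 2.37, 2.65 and 2.48 in the controls and 2.31, 2.23 and 2.63 in the knockdown-labelled arrays. The groups overlapped, and the difference of −0.11 had a 95% interval from −0.47 to 0.26 (limma adjusted p = 0.817). CCNB1, which encodes cyclin B1 (probe set 8105828), read 2.48, 2.44 and 2.43 in the controls and 2.41, 2.31 and 2.38 in the knockdown-labelled arrays. The groups did not overlap, but the whole span was narrow and the difference only −0.08 (interval −0.41 to 0.24; limma adjusted p = 0.842). CCNB2, the second B-type cyclin, was at −0.32 ± 0.167 (SE), from 2.93 ± 0.17 to 2.60 ± 0.16 (SD, n = 3 each), with overlap in the signals. CCNA2, which encodes cyclin A2, was at 0.10, and CCNF, the F-box protein cyclin F, at −0.05. The CDK1-activating phosphatases split, with CDC25B at −0.13 and CDC25C at 0.20, and for both genes the groups overlapped. In CDC25B knockdown-labelled replicate 1 read 4.50 and the other 5 arrays 4.88 to 5.27. Of the 8 entry genes 6 were below 0 (75%, against 51.5% of all genes). Their median was −0.10, or −0.18 with the median of each gene's signal bin subtracted. It was −0.18 on quantile-normalized values, −0.06 with array weights and −0.05 without control replicate 1.

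AURKA, the centrosome and spindle-pole kinase, had the lowest value among the mitotic kinases and the widest error of any member. Its log2 signal (probe set 8067167) was 4.95, 4.26 and 4.26 in the controls and 3.26, 3.82 and 4.21 in the knockdown-labelled arrays. Control replicates 2 and 3 held the same value (4.26249). Among all 18417 genes, 101 had 2 control arrays equal to 4 decimals, and the cause was not tested. The groups did not overlap, but knockdown-labelled replicate 3 lay just under control replicates 2 and 3. The difference was −0.73 ± 0.249 (SE), with a limma adjusted p of 0.314. It was −0.48 without knockdown-labelled replicate 1 and −0.50 without control replicate 1.

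The other kinases overlapped between the groups. AURKB, the kinase of the chromosomal passenger complex (probe set 8012403), read 5.21, 5.10 and 4.66 in the controls and 4.83, 5.03 and 4.67 in the knockdown-labelled arrays. Its difference was −0.15 (interval −0.55 to 0.25; limma adjusted p = 0.765), and 0.11 with array weights. PLK1, which triggers entry and centrosome maturation (probe set 7994109), read 4.29, 4.14 and 4.29 in the controls and 3.85, 4.23 and 4.05 in the knockdown-labelled arrays. Its difference of −0.20 had an interval of −0.55 to 0.16 (limma adjusted p = 0.64). NEK2, a kinase that separates centrosomes, was at 0.36 ± 0.211 (SE), with 3.35 in knockdown-labelled replicate 1 and 2.60 in replicate 3. FOXM1, the transcription factor of G2 genes, was at 0.05, and its knockdown-labelled arrays spread more widely (SD 0.36 around 3.51) than its controls (SD 0.13 around 3.46).

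Signals of the spindle checkpoint genes overlapped between the groups for all 5 members. TTK, the MPS1 kinase at the head of the checkpoint (probe set 8120838), read 1.63, 1.53 and 1.73 in the controls and 1.93, 1.70 and 1.87 in the knockdown-labelled arrays. Its difference of 0.20 (interval −0.14 to 0.54; limma adjusted p = 0.608) was −0.00074 on quantile-normalized values. BUB3, a WD-repeat protein that carries BUB1 and BUBR1 to kinetochores (probe set 7931187), read 5.62, 4.85 and 5.41 in the controls and 5.06, 5.08 and 5.12 in the knockdown-labelled arrays. The controls thus spread on both sides of the knockdown-labelled arrays, and the difference was −0.20 (interval −0.63 to 0.22; limma adjusted p = 0.686). BUB1 was at 0.14, BUB1B, which encodes BUBR1, at 0.07, and MAD2L1, the inhibitor of CDC20, at 0.01. BUB1B and MAD2L1 turned below 0 after quantile normalization, to −0.04 and −0.17. Of the 5 genes 1 was thus below 0 as deposited and 4 after that step.

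Genes of anaphase onset were close to 0. CDC20, the activator of the anaphase-promoting complex (probe set 7900699), read 4.24, 4.31 and 4.05 in the controls and 4.61, 3.99 and 4.55 in the knockdown-labelled arrays. Knockdown-labelled replicate 2 was the lowest of the 6 arrays and replicates 1 and 3 the highest. The difference was 0.18 (interval −0.23 to 0.59; limma adjusted p = 0.71). UBE2C, the ubiquitin-conjugating enzyme of the complex, was at 0.07, PTTG1, which encodes securin, at −0.15, and CDCA3, an adaptor for WEE1 destruction, at 0.07. The 4 genes had a median of 0.07 (0.03 without control replicate 3 or knockdown-labelled replicate 3, 0.14 with array weights), and none was at an unadjusted p under 0.05 in limma.

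All 7 measured centromere and kinetochore members were above 0, with a median of 0.14, but CENPE, NUF2 and SGO1 were below 0 after quantile normalization and after cyclic loess. CENPE, CENPF, NDC80, NUF2 and SGO1 lay in the dimmest signal bin, where only 18.3% of all genes were below 0, against 51.5% over all bins. With bin medians subtracted CENPE was at −0.01 and NUF2 at −0.10, and the other members stayed above 0. CENPF, a large kinetochore and nuclear matrix protein of G2 and mitosis (probe set 7909708), read 2.42, 2.35 and 2.21 in the controls and 2.71, 2.52 and 2.98 in the knockdown-labelled arrays. The groups did not overlap. The difference was 0.41 ± 0.17 (SE), with a limma unadjusted p of 0.0318 and an adjusted p of 0.374, and it was 0.27 after quantile normalization. HJURP, the chaperone that loads CENPA (probe set 8059838), read 4.50, 4.62 and 4.59 in the controls and 4.28, 5.03 and 4.75 in the knockdown-labelled arrays. Its controls were tight and the knockdown-labelled arrays lay on both sides of them, for a difference of 0.12 (interval −0.30 to 0.53). The microtubule-binding NDC80 complex gave 0.29 for NDC80 and 0.05 for NUF2. CENPE, a kinesin of chromosome congression, was at 0.14, SGO1, which protects centromeric cohesin, at 0.19, and CDCA8, the passenger protein borealin, at 0.13.

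Among kinesins and spindle proteins the lowest value was that of KIF20A, a kinesin of the central spindle. Its log2 signal (probe set 8108301) was 3.94, 3.31 and 4.11 in the controls and 3.27, 3.22 and 3.15 in the knockdown-labelled arrays. The knockdown-labelled arrays agreed closely, while control replicate 2 read just above them and the other controls far above. The difference was −0.57 ± 0.202 (SE), with a limma adjusted p of 0.327. With array weights, which gave control replicate 3 a weight of 5.03 and the other arrays 0.41 to 1.22, it was −0.81 with a limma adjusted p of 0.0439, in a fit that called 191 genes (1.04%). It was −0.41 without control replicate 3 and −0.81 without control replicate 2.

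The remaining spindle genes differed by less than 0.25 on the log2 scale. NUSAP1, a microtubule-bundling protein (probe set 7982889), read 4.26, 3.87 and 3.99 in the controls and 3.84, 3.79 and 3.84 in the knockdown-labelled arrays. The groups did not overlap, with a difference of −0.21 (interval −0.57 to 0.14; limma adjusted p = 0.604). KIF23, a motor of the cytokinetic midzone, also did not overlap, at −0.15, with controls between 3.67 and 3.71 and knockdown-labelled arrays between 3.34 and 3.66. ASPM, a spindle-pole protein, did not overlap in the other direction, at 0.23, or 0.06 after quantile normalization. KIF11, the motor that pushes spindle poles apart, was at −0.17, and KIF2C, which depolymerises microtubules, at 0.09. TPX2, which activates AURKA on the spindle, was at −0.08. CKAP2, a microtubule-binding protein, was at −0.18, PRC1, the midzone crosslinker, at 0.03, and HMMR, a spindle assembly factor, at 0.19. DLGAP5, a stabiliser of kinetochore fibres, was at 0.11, with the widest spread among controls of any member (2.06 to 2.91).

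MKI67, which encodes the proliferation marker Ki-67 (probe set 7937020), read 2.29, 2.29 and 1.91 in the controls and 2.71, 2.43 and 2.03 in the knockdown-labelled arrays. Control replicates 1 and 2 held the same value (2.29363). The groups overlapped, and the difference of 0.22 had an interval of −0.20 to 0.65 (limma adjusted p = 0.662). ECT2, which is needed for cytokinesis (probe set 8083941), read 3.86, 3.61 and 3.65 in the controls and 3.70, 3.31 and 3.65 in the knockdown-labelled arrays. Its difference was −0.16 (limma adjusted p = 0.726). ANLN, the ring scaffold anillin, was at 0.16. The groups overlapped for both.

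**Figure D2:**
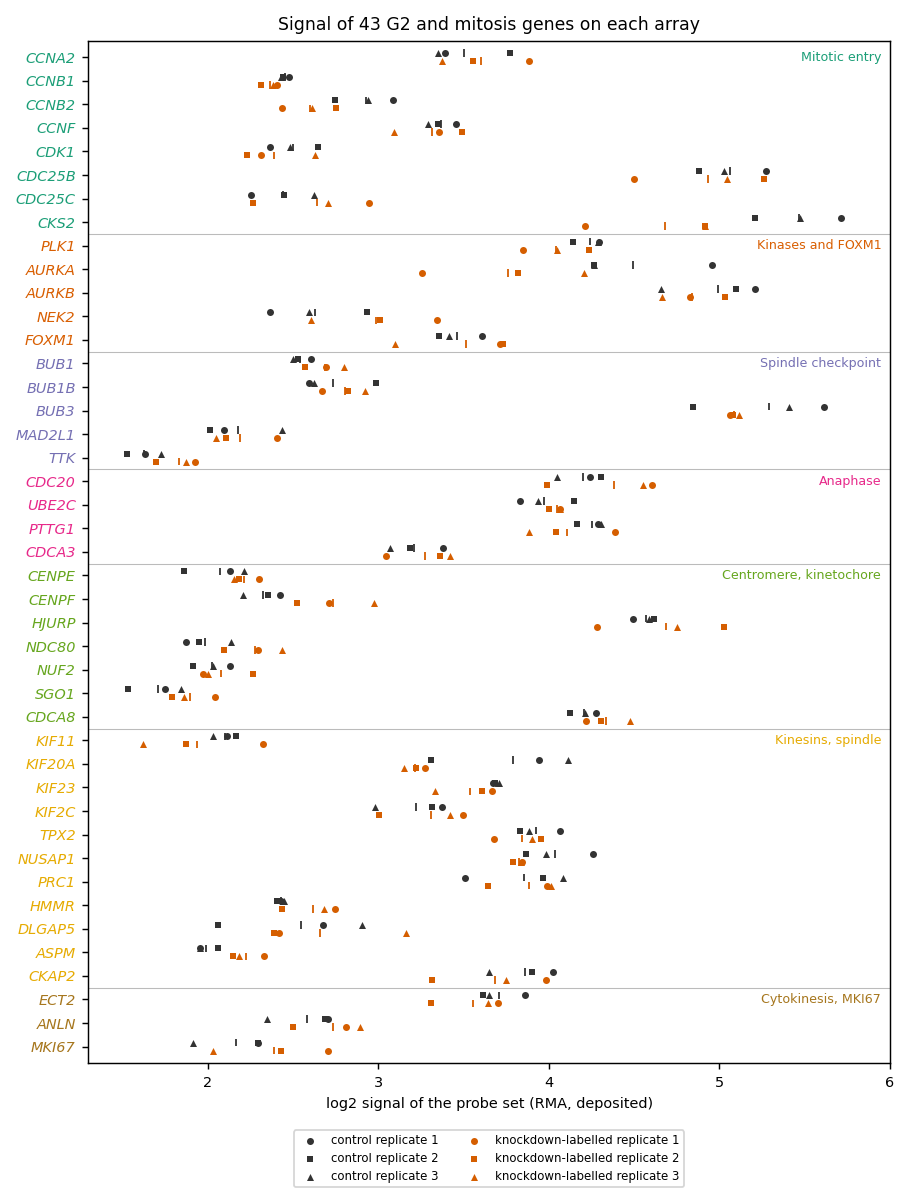
Log2 signal (x axis) of 43 genes on each of 6 arrays, with controls in black and knockdown-labelled arrays in orange; symbols mark the replicate number, short bars the group means, and lines separate the roles. The groups separate without overlap in 8 genes, as in CKS2, where controls read 5.21 to 5.71 and knockdown-labelled arrays 4.21 to 4.92.

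Related genes were set against each other within each array, in 5 pairs, to ask whether one partner differed more than the other. CKS2 minus its paralog CKS1B had a mean of −0.49 in the controls (SD 0.56) and −1.49 in the knockdown-labelled arrays (SD 0.72), a change of −0.997. It was −0.57 when the 3 probe sets of CKS1B were averaged, and −0.58 without knockdown-labelled replicate 1. AURKA minus AURKB changed by −0.58, and by −0.34 without that array and −0.90 without knockdown-labelled replicate 3. CCNB1 minus CCNB2 changed by 0.24, and by 0.14 without knockdown-labelled replicate 1. For each of these 3 pairs the exact permutation test, 2-sided, gave p = 0.2, or 0.333 after adjustment over the 5 pairs, where 3 against 3 arrays cannot go below 0.1. CDC25B minus CDC25C changed by −0.32 and BUB1 minus BUB1B by 0.07, with exact permutation p of 0.4 and 0.6 (adjusted, 0.5 and 0.6). The CDC25 pair changed sign, to 0.05, without knockdown-labelled replicate 1 and with array weights. The BUB1 pair did so without control replicate 2 (−0.06) and with array weights (−0.02). With that lower limit on p, the test could not have called any pair.

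The sign of a member's difference went with its mean signal, as it did for genes in general. Of the 15 members in the dimmest of 5 equal bins of all genes (bin 1) 12 were above 0, with a median of 0.19, beside a median of 0.15 for all genes of that bin. In bins 2 and 3 the medians of the 8 and 12 members were 0.08 and −0.15, beside 0.07 and −0.01 for all genes. The 6 members of bin 4 had a median of −0.00 beside −0.10, and both members of the brightest bin, CKS2 and BUB3, were below 0, where the median of all genes was −0.25. With the median of its own bin subtracted, a member's difference had a median of −0.00, with 22 below 0 and 21 above. CKS2 was then at −0.53, AURKA at −0.72, KIF20A at −0.56 and CENPF at 0.26.

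**Figure D3:**
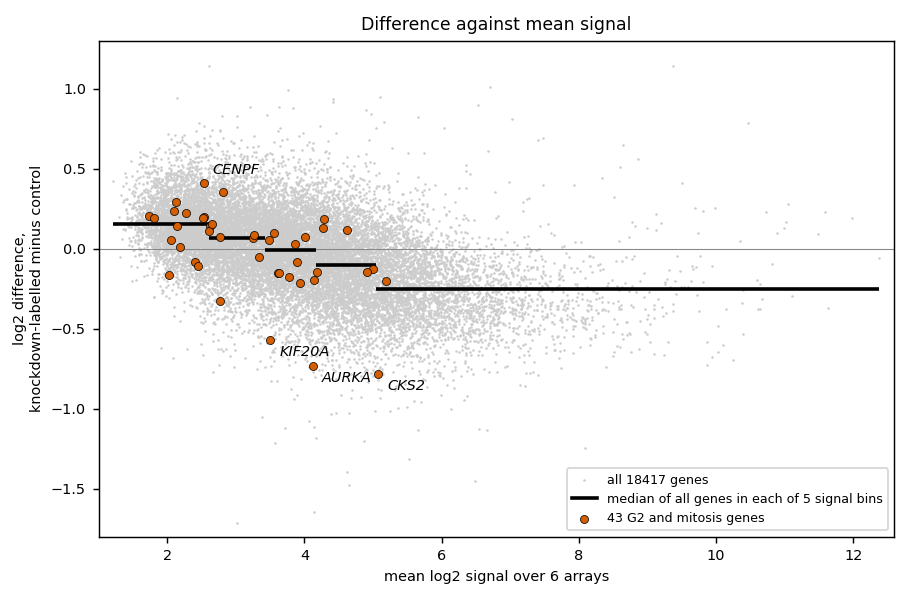
Log2 difference, knockdown-labelled minus control (y axis), against the mean log2 signal over 6 arrays (x axis) for all 18417 genes (grey) and the 43 G2 and mitosis genes (orange); black bars are the medians of all genes in 5 bins of equal size. The medians of all genes run from 0.15 in the dimmest bin to −0.25 in the brightest, and KIF20A, AURKA and CKS2 lie below them. This shift was largest in knockdown-labelled replicate 1.

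Array by array, the members did not move as a block. Relative to its control mean, the median member was at 0.06, −0.02 and −0.03 in control replicates 1, 2 and 3, and at 0.10, 0.01 and −0.02 in knockdown-labelled replicates 1, 2 and 3. In the knockdown-labelled arrays 20, 21 and 23 of the 43 members lay below their control mean. Knockdown-labelled replicate 1 was the highest of the 6 arrays for 13 members and the lowest for 8, and control replicate 2 was the lowest for 9. Over all genes, knockdown-labelled replicate 1 was the highest for 25.2% and the lowest for 28.4%, and control replicate 2 was the lowest for 9.97%. Control replicate 1 was the highest for 12 members, and for 25.9% of all genes. Without knockdown-labelled replicate 1 the median difference of the members was −0.00057, and at an unadjusted p under 0.05 CKS2, KIF20A and CENPF were left.

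**Figure D4:**
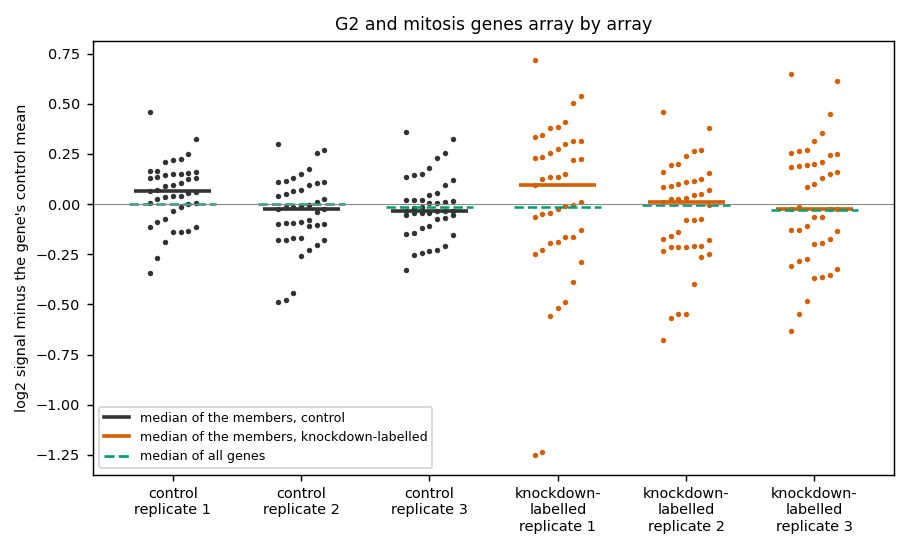
Log2 signal of each of 43 genes minus its own control mean (y axis) on each of 6 arrays (x axis), one point per gene; solid bars are the medians of the members and dashed green bars those of all genes. The medians of the members lie between −0.03 and 0.10, and the lowest points of knockdown-labelled replicate 1 are CKS2 and AURKA.

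The wider machinery was read from a list of 113 other genes, of which 111 had a probe set of their own. None passed the threshold (limma, lowest adjusted p 0.284), and at an unadjusted p under 0.05 in limma 15 were lower (13.5%) and 5 higher (4.50%), against the 8.38% and 3.78% of all genes. The median difference was −0.04, or −0.08 with bin medians subtracted. Of the 17 genes of the anaphase-promoting complex and its regulators 13 were below 0 (76.5%, against 51.5% of all genes). In bins 4 and 5, the brightest, 66.1% and 85.3% of all genes were below 0. The median of the 17 genes was −0.36, or −0.28 with bin medians subtracted. It was −0.30 on quantile-normalized values, −0.20 without knockdown-labelled replicate 1 and −0.16 with array weights. At an unadjusted p under 0.05 in limma 5 of the 17 genes read lower (29.4%, against 8.38% of all genes). These were ANAPC7 (−0.66, with 4.46 in knockdown-labelled replicate 1 and 5.28 and 5.36 in replicates 2 and 3), CDC16 (−0.62), ANAPC16 (−0.55), ANAPC15 (−0.52) and ANAPC5 (−0.47), all subunits of the complex that CDC20 activates. ANAPC5 and ANAPC7 lay in bin 5, ANAPC15 and ANAPC16 in bin 4 and CDC16 in bin 3. The 8.38% is over all signal levels, and no such share was computed within bins, so the 29.4% has no like background. ANAPC16 read 4.72, 4.25 and 4.604 in the controls and 4.05, 3.82 and 4.05 in the knockdown-labelled arrays, and passed the threshold only with array weights (−0.65, limma adjusted p = 0.0488).

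Of the 20 cohesin and condensin genes, RAD21 (−0.66) and SMC1A (−0.38), both of the cohesin ring, and NCAPD3 (−0.42), of condensin II, read lower at that p. Other centromere and kinetochore genes (28 measured, median 0.10) went both ways. MIS12 (−0.55), CENPT (−0.51) and SKA2 (−0.48) read lower, while CENPM (0.57), OIP5 (0.49), SPC25 (0.49), CENPW (0.43) and SKA3 (0.37) read higher. SPC25 is a partner of NDC80 and NUF2, which were at 0.29 and 0.05. The 12 genes that control mitotic entry had a median of −0.23, or −0.04 without knockdown-labelled replicate 1. With bin medians subtracted that median was −0.10, and on quantile-normalized values also −0.10. Among these 12 genes ENSA (−0.73) and ARPP19 (−0.51), related inhibitors of the phosphatase that opposes CDK1, read lower. ENSA had 3 probe sets of its own, and ARPP19 and SKA2 had 2 each. Their values here are those of the brightest one only. With the probe sets of each gene averaged, the median of the 12 genes was −0.22. ENSA read 6.67, 6.12 and 6.44 in the controls and 5.11, 6.12 and 5.79 in the knockdown-labelled arrays, with overlap. CKAP5 (−0.47) and MELK (−0.41) read lower among 24 other spindle and mitotic genes (median 0.02, but −0.09 on quantile-normalized values and −0.03 without control replicate 1). Of the 10 DREAM and MuvB genes, which repress and activate the members' promoters, 8 were below 0 (80%, against 51.5% of all genes). Their median was −0.18, or −0.19 with bin medians subtracted, and 0 of the 10 were at an unadjusted p under 0.05 in limma.

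Across the alternatives, 25 of the 43 members kept the sign of their difference in each one in which they were fitted, among them the 4 at an unadjusted p under 0.05. The groups of these 4 did not overlap, so leaving out 1 array or weighting arrays could not change their sign. The replicate block, the filter, the mean of probe sets and the robust variance returned the same difference for each member fitted. Only quantile normalization, cyclic loess and subtracted array medians could have changed the sign of these 4. TTK turned just below 0 after quantile normalization and cyclic loess, AURKB above 0 with array weights, and HJURP below 0 without knockdown-labelled replicate 2. CKS2 ran from −0.91 to −0.55, AURKA from −0.96 to −0.48, KIF20A from −0.81 to −0.41 and CENPF from 0.27 to 0.52.

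**Figure D5:**
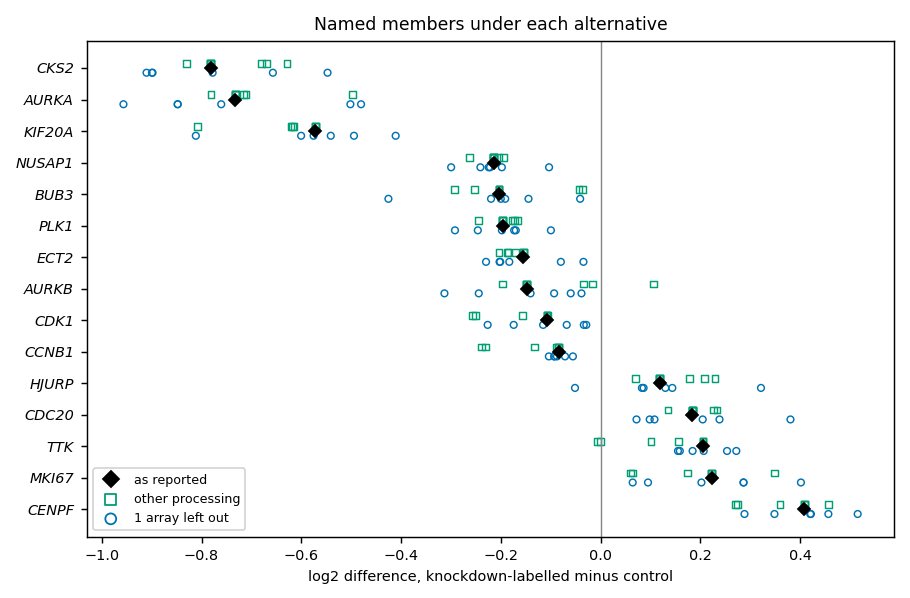
Log2 difference, knockdown-labelled minus control (x axis), of 15 members as reported (black diamonds), under 8 other ways of processing (green squares) and with each of 6 arrays left out (blue circles). CKS2, AURKA and KIF20A stay below 0 and CENPF above 0 in all of those fitted, while TTK, AURKB and HJURP cross 0. As the groups of CKS2, AURKA, KIF20A and CENPF do not overlap, leaving out an array could not change their sign.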

How the data were processed

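Gene expression was measured on Affymetrix arrays in 6 samples. The authors deposited log2 signals of 33297 probe sets. The submitters' processing notes name RMA, whose version is not given in the sources used here, and the log2 scale was read off the values. Probe sets were named by platform annotation of unknown age: 19460 had 1 gene, 1754 several and 12083 none, and only the first kind was used. Per gene the probe set with the highest mean was kept, with no filter on low signals. Groups came from the sample titles. Genes were tested with limma 3.58.1 (R 4.3.3; 2-sided, lmFit and eBayes without covariates), and p-values were adjusted by Benjamini-Hochberg over 18417 genes, with 0.05 as the threshold. Values after ± are standard errors where marked SE, otherwise SDs. On simulated arrays of this comparison with 18417 genes, recovery was 61% for 100 genes with a log2 change of 1 and 97% for 100 with a change of 2. The simulated noise was independent for each gene, with no array-wide shift by signal and no compression of dim signals. The changed genes came from all signal levels, so recovery of dim members was not measured. No member's difference reached 1, so recovery at the size of the members' differences was not measured either. The simulated arrays gave 165 calls, against 6 in the data, and recovery with fewer changed genes was not measured. Members, lists and tests were chosen with earlier results of these data known. Values of every array are given for members at an unadjusted p under 0.05, for the member with the largest difference and with the highest signal in each role, and for CDK1, CCNB1, PLK1, AURKB and MKI67; non-overlapping and other members were named after their values were seen. Signal bins, array medians and related pairs were also chosen then. Alternatives were quantile normalization, cyclic loess (5 iterations), array medians subtracted, the replicate block, the mean of a gene's probe sets, array weights, a filter at the median signal, a robust variance with an intensity trend, and leaving out each array. Figures were drawn with matplotlib 3.10.9.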

Additional observations from a re-analysis of the deposited data

How the results depend on the processing

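The count of members past the threshold was 0 in each alternative but array weights, where it was 1 (KIF20A); that of the other pathway genes was likewise 1 there (ANAPC16). All genes past the threshold, 6 as reported, numbered 16 with the filter at the median signal, 3 with the mean of all probe sets, 191 with array weights, and 0 after quantile normalization and cyclic loess (limma; 1495 and 1511 genes had an unadjusted p under 0.05). It was 0 to 9 with 1 array left out. With the replicate number as a block 3 genes passed and 0 members, and CENPF was no longer at an unadjusted p under 0.05. Over all genes, the deviations of same-numbered arrays from their group means had correlations of −0.31, −0.02 and 0.07. Differently numbered arrays ranged from −0.39 to 0.37. With 3 arrays per group this cannot decide whether the numbers pair the samples, and the labels do not say. Members at an unadjusted p under 0.05, 4 as reported, numbered 2 with the filter, which kept 14 members, and 2 to 6 with 1 array left out, with 2 without control replicate 1 or control replicate 3. Members whose groups did not overlap, 8 as reported, numbered 3 with the filter, 5 after quantile normalization, 5 with array medians subtracted and 4 after cyclic loess, and 10 to 19 with 1 array left out, where fewer arrays overlap less often by construction. Their median difference of 0.05 was −0.14 with the filter (−0.14 for all genes), −0.034 after quantile normalization (−0.032) and −0.017 after cyclic loess (−0.021). Sign changes of single members, none of them called, numbered 8 after quantile normalization, 8 after cyclic loess, 7 with array weights and 2 with array medians subtracted. The cause of these shifts was not tested. The related pairs were chosen after seeing the data. How far a signal stood over background is not known.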
